A study of Mus musculus with 8 samples.

Results

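Dopamine reception and its phosphoprotein relay were followed through 6 genes in newborn mouse striatum with and without the transcription factor Ctip2: the dopamine receptors Drd1 and Drd2, the cyclic AMP-regulated phosphoproteins Ppp1r1b (DARPP-32), Arpp21 and Arpp19, and the phosphatase Ptpn5 (STEP). They were chosen by symbol, as every probe set whose single annotated gene is one of the 6, which gave 15 of 45037 probe sets: 2 for Drd1, 1 for Drd2, 1 for Ppp1r1b, 5 for Arpp21, 3 for Arpp19 and 3 for Ptpn5. Each of 8 Affymetrix arrays held RNA of a different BALB/c mouse at postnatal day 0: 3 wild type, 4 Ctip2 null and 1 Ctip2 heterozygote. The tissue was a punch of 500 µm diameter from the centre of the developing striatum in a slice of 300 µm, so all cell types of that spot entered the RNA. The labels name no other allele, treatment or Cre driver. They give neither the deleted part of the gene nor the sex of the mice.

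Most neurons of the striatum are medium spiny projection neurons. Those of the direct pathway carry the D1 receptor, which raises cyclic AMP through the olfactory-type G protein and adenylyl cyclase, and those of the indirect pathway carry the D2 receptor, which lowers it. Cyclic AMP activates protein kinase A, which turns DARPP-32 into an inhibitor of protein phosphatase 1 and also phosphorylates ARPP-21, a regulator of calmodulin signalling that has longer RNA-binding forms, and ARPP-19, an inhibitor of protein phosphatase 2A found in most cells. STEP is a tyrosine phosphatase rich in striatum that acts on MAP kinases, Fyn and glutamate receptors and is itself held inactive by protein kinase A.

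Values are log2 expression values as the authors made them with RMA, so a difference of 1 is a doubling, and wild type and null were compared with limma, with p values adjusted by Benjamini-Hochberg over all 45037 probe sets and a threshold of 0.05. Ctip2 itself, listed as Bcl11b, was lower in null striatum on all 4 of its probe sets, with differences of -1.66 to -1.11 and adjusted p values of 0.0011 to 0.0152, and still gave signal there, between 7.98 and 11.47. Array medians lay between 6.21 and 6.35, and the SD of an array's values lay between 1.84 and 2.06, widest in the heterozygote. The choroid plexus gene Ttr was highest in wild type 1 (13.34) and null 2 (13.44), against 7.11 to 11.44 in the other arrays. The summed level of 6 GABAergic neuron genes, after taking each value out of the log scale, was 10110 to 12614 in wild type and 13997 to 15638 in null striatum. That of 8 microglia genes was 1484 to 1695 and 1896 to 2697. That of 7 cortical glutamatergic genes was 457 to 498 and 382 to 450. On these 3 lists the groups were apart in the same direction after quantile normalization or centring, with Gad1 the only gene called, which rose by 1.41 (adjusted p = 0.0041). Striatal projection neuron genes were well expressed, Foxp1 and Meis2 with wild type means of 12.34 and 11.53. The 6 summed genes did not move alike, so their sum does not measure projection neurons as such. Foxp1 differed by -0.22 (adjusted p = 0.428), Rarb by 0.17 (0.729) and Meis2 by 0.57 (0.0633). Gad2 and Slc32a1 differed by 0.73 (0.0632) and 0.72 (0.0532). The part of these cell types in the results below was not tested.

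Drd1, Ppp1r1b and Arpp21 fell in null striatum, while no probe set of Drd2, Arpp19 or Ptpn5 passed the test. Of the 15 probe sets, 4 were lower and 0 higher at an adjusted p under 0.05, and 6 had an unadjusted p under 0.05, all lower in null. Over all probe sets 0.453% were called lower and 1.87% higher, and 19.6% had an unadjusted p under 0.05. On 5 of the 15 every null value lay below every wild type value and on 0 above, against 8.85% and 7.70% of all probe sets. The median difference, null minus wild type, was -0.17 over the 15 probe sets and -0.08 over all probe sets. In RNA from a whole punch, fewer cells of a type and less RNA in each cell cannot be told apart.

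**Figure D1:**
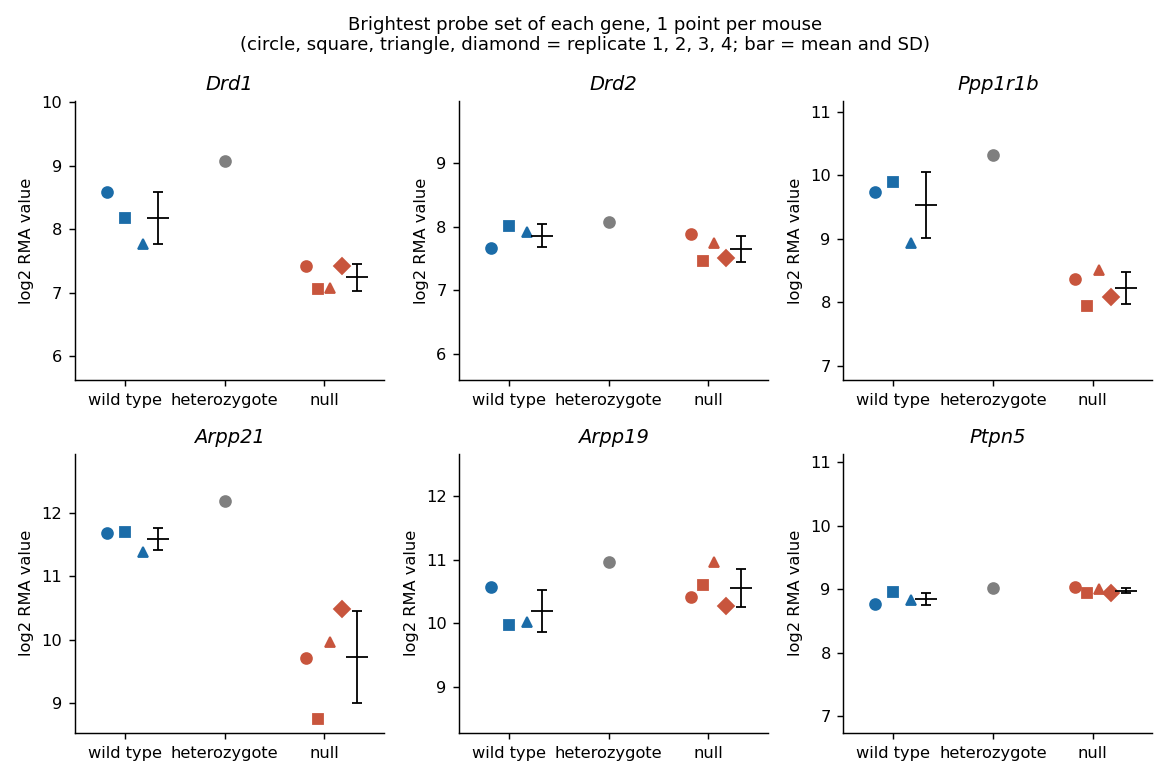
Log2 RMA values (vertical axis, each panel spanning the same number of log2 units) of the brightest probe set of each gene, with 1 point per mouse and black bars for the mean and SD of wild type (n = 3) and null (n = 4). Wild type and null points are apart for Drd1, Ppp1r1b and Arpp21 and overlap for Drd2, Arpp19 and Ptpn5, and the heterozygote lies above every wild type point in all 6 panels.

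Drd1 encodes the receptor of the direct pathway. Its brighter probe set, 1456051_at, read 8.59, 8.18 and 7.77 in wild type 1 to 3 and 7.42, 7.05, 7.07 and 7.42 in null 1 to 4, so the lowest wild type array stood above the highest null array. The difference was -0.93 (SE 0.20, 95% interval -1.38 to -0.49), 1.91-fold lower, with a limma adjusted p of 0.0438. The other probe set, 1455629_at, read 8.45, 7.34 and 7.41 in wild type and 6.96, 6.55, 6.85 and 7.42 in null striatum. There null 4 reached the level of wild type 2 and 3, and the difference of -0.79 (95% interval -1.42 to -0.15) had an adjusted p of 0.185. The change of the brighter probe set minus that of the other was -0.15, with an exact permutation p of 0.571. The call on the brighter probe set was lost under 9 of 19 alternatives, with adjusted p values of 0.0573 when wild type 1 was left out, 0.145 when wild type 2 was, and 0.0813, 0.134 and 0.0950 when null 1, 2 or 3 was, while its sign was negative under all 19.

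Drd2 encodes the receptor of the indirect pathway. Its single probe set, 1418950_at, read 7.66, 8.01 and 7.91 in wild type and 7.89, 7.46, 7.75 and 7.51 in null striatum, and the groups overlapped, wild type 1 lying among the null arrays. The difference was -0.21 (95% interval -0.54 to 0.12), with an adjusted p of 0.422. Whether Drd1 changed more than Drd2 was tested on the difference between both log2 values within each array. The change of Drd1 minus that of Drd2 was -0.73, with an exact permutation p of 0.0857 over 35 assignments, where 0.0286 is the smallest possible, and 0.0857 after adjustment over the 2 pairs tested. A difference in response between the receptors was therefore not shown at this number of mice, nor was it shown that they responded alike.

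The sequences before both start sites are given because the receptors are the pair compared here. They come from RefSeq (GRCm38.p6), run 5′ to 3′ on the gene's strand and stop where the annotated gene begins. Capitals mark the GC box GGGCGG on either strand.
Drd1, chr13:54055659-54055908, minus strand: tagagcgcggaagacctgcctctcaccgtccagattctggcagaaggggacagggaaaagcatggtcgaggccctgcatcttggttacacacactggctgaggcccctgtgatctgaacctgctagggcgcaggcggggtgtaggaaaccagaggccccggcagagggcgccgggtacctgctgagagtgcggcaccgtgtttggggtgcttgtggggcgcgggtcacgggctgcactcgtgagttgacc
Drd2, chr9:49340153-49340359, plus strand: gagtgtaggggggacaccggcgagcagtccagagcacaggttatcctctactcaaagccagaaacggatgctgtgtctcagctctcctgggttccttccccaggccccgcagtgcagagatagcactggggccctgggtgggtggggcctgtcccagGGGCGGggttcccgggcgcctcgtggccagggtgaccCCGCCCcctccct
The Drd1 stretch holds 0 GC boxes and the Drd2 stretch 2, while the window before a second Drd1 start site, not shown, holds 1, where 32.7% of 32851 mouse windows of 250 bases before a start site hold at least 1. Neither stretch holds the cyclic AMP response element TGACGTCA, its shorter core TGACG, which lies within it, or TGACCA, a motif known for the Ctip2 paralogue Bcl11a, on either strand. These are found in 1.55%, 17.8% and 11.4% of all windows. Among the 16 windows listed for 5 of the genes, 0 held TGACGTCA, 2 held TGACG, 3 held GGGCGG and 3 held TGACCA, the last all among the 9 windows of Arpp21, some of which overlap. A match or its absence describes only these letters.

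Ppp1r1b encodes DARPP-32, the inhibitor of protein phosphatase 1 that medium spiny neurons of both pathways contain. Its probe set, 1451331_at, read 9.74, 9.90 and 8.93 in wild type and 8.36, 7.95, 8.51 and 8.09 in null striatum. Wild type 3 was nearest to the null arrays and still lay above all of them. The gene was 2.46-fold lower, a difference of -1.30 (SE 0.23, 95% interval -1.82 to -0.77), with a limma adjusted p of 0.0235. This call was lost under 6 of 19 alternatives, among them the fits without wild type 2 (0.0983), null 1 (0.0585) or null 2 (0.0791).

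Arpp21 changed most of the 6 genes, and on some of its probe sets only. The brightest, 1424248_at, read 11.69, 11.70 and 11.38 in wild type and 9.72, 8.75, 9.96 and 10.49 in null striatum. All null arrays lay below the wild type arrays, null 2 lowest and null 4 highest. The difference was -1.86 (SE 0.33, 95% interval -2.60 to -1.12), 3.63-fold lower, with a limma adjusted p of 0.0220. The next, 1451280_at, was designed from the same sequence record and read 10.14, 10.13 and 9.71 against 8.39, 7.35, 7.68 and 8.68, which is 3.91-fold lower with an adjusted p of 0.0105. Both probe sets ranked null 2 lowest and null 4 highest among the null mice, and the change of the first minus that of the second was 0.11, with an exact permutation p of 0.932 after adjustment over 9 such pairs.

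The other 3 Arpp21 probe sets come from other sequence records. 1419028_at read 6.46 to 8.44 in wild type and 7.08 to 7.95 in null striatum, wild type 2 being the lowest array of all, and differed by -0.08 (95% interval -0.98 to 0.83). 1442121_at differed by 0.26 and 1440429_at by -0.17, and both were dim, from 5.27 to 6.46 and from 3.33 to 4.50. Adjusted p values of the 3 were 0.917, 0.587 and 0.727. The change of the brightest probe set minus theirs was -1.79, -2.12 and -1.69, with exact permutation p values of 0.114, 0.0571 and 0.0286. Each exceeded 0.05 after adjustment over the 9 pairs of probe sets tested within genes (0.206, 0.171 and 0.171). The smallest possible p is 0.0286, with which a pair cannot on its own pass adjustment over 9 pairs. Whether these probe sets changed differently was therefore not decided. The labels do not say which transcript forms each probe set reads.

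**Figure D2:**
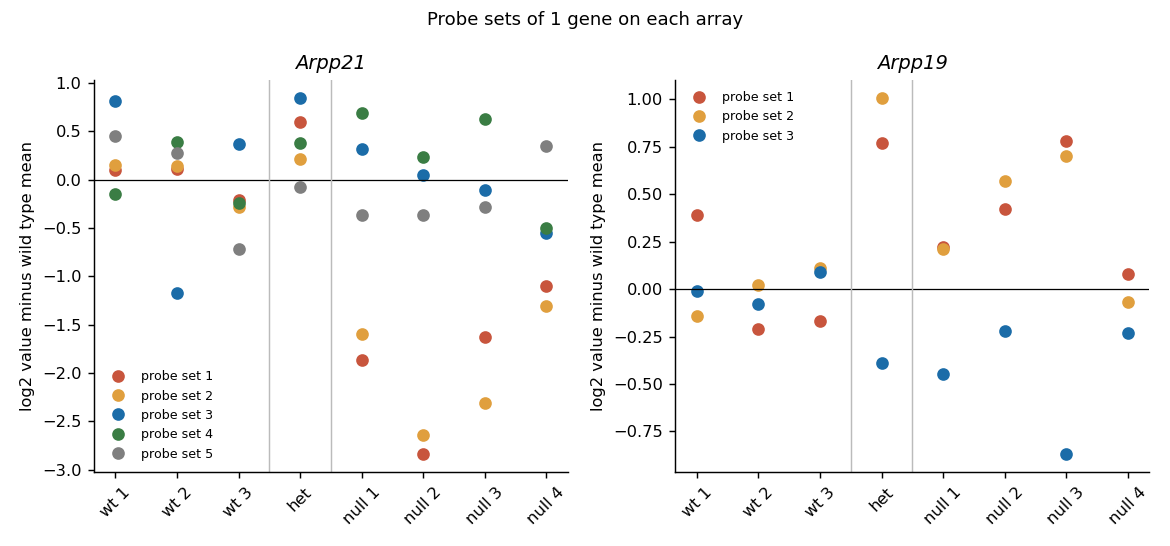
Log2 value minus the wild type mean (vertical axis) of each probe set of Arpp21 (left) and Arpp19 (right) on the 8 arrays (wt, wild type; het, heterozygote), numbered from the brightest. Arpp21 probe sets 1 and 2 lie together and below the wild type mean in every null mouse, whereas probe sets 3 to 5 scatter around 0, and Arpp19 probe set 3 lies opposite to probe sets 1 and 2 in the heterozygote and in null 1, 2 and 3.

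The calls on both falling Arpp21 probe sets were lost without wild type 2, at 0.0958 and 0.0548. That on the brightest was also lost without wild type 3 (0.0781) or null 1 (0.0623). The RefSeq gene of Arpp21 spans the gene of a brain microRNA. Its mature sequence is shown because RNA of the host gene fell here on some of its probe sets. Capitals mark the seed, bases 2 to 8.
mmu-miR-128-3p, chr9:112118644-112118664, minus strand: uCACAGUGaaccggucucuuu
The microRNA itself was not analysed here.

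Arpp19 encodes the phosphatase 2A inhibitor of most cells, and its 3 probe sets, all designed from 1 sequence record, did not lie in 1 direction. The brightest, 1450685_at, read 10.58, 9.98 and 10.02 in wild type and 10.41, 10.61, 10.97 and 10.27 in null striatum, with wild type 1 inside the null range. 1422609_at read 9.33, 9.49 and 9.58 against 9.68, 10.04, 10.17 and 9.40. Their differences were 0.37 (95% interval -0.08 to 0.82) and 0.36 (-0.06 to 0.77), with adjusted p values of 0.320 and 0.308. The third, 1422608_at, read 8.98, 8.91 and 9.08 in wild type and 8.54, 8.77, 8.12 and 8.76 in null striatum, so that all null arrays lay below all wild type arrays, as they do on 8.85% of all probe sets. Its difference was -0.44 (95% interval -0.82 to -0.06), with an adjusted p of 0.206.

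The array with the highest value differed between these Arpp19 probe sets. Null 3 was highest on the first and lowest on the third, and the heterozygote was highest on the second. These are the arrays of widest signal spread, with an SD of 2.05 and 2.06. With that SD as a covariate the differences were -0.02, 0.13 and -0.30. The change of Arpp21 relative to Arpp19, on the brightest probe set of each, was -2.23, with an exact permutation p of 0.0571 and 0.0857 after adjustment over the 2 pairs. Within each array that difference was 1.12 to 1.72 in wild type and -1.86 to 0.22 in null striatum, and the groups did not overlap.

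Ptpn5, the tyrosine phosphatase STEP, varied least among the brightest probe sets of the 6 genes. Its brightest probe set, 1423544_at, read 8.77, 8.96 and 8.83 in wild type and 9.03, 8.95, 9.01 and 8.94 in null striatum, a difference of 0.13 (95% interval -0.12 to 0.38; adjusted p = 0.504). Wild type 2 lay within the null range. Quantile normalization turned this difference to -0.07. The interval leaves room for a rise of 0.38 but not for a change of the size seen in Ppp1r1b or Arpp21. 1425131_at and 1425130_a_at read lower, from 6.22 to 6.59 and from 5.73 to 6.36 over the wild type and null arrays. Both were designed from 1 sequence record and differed by -0.17 and -0.15, with adjusted p values of 0.433 and 0.575.

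**Figure D3:**
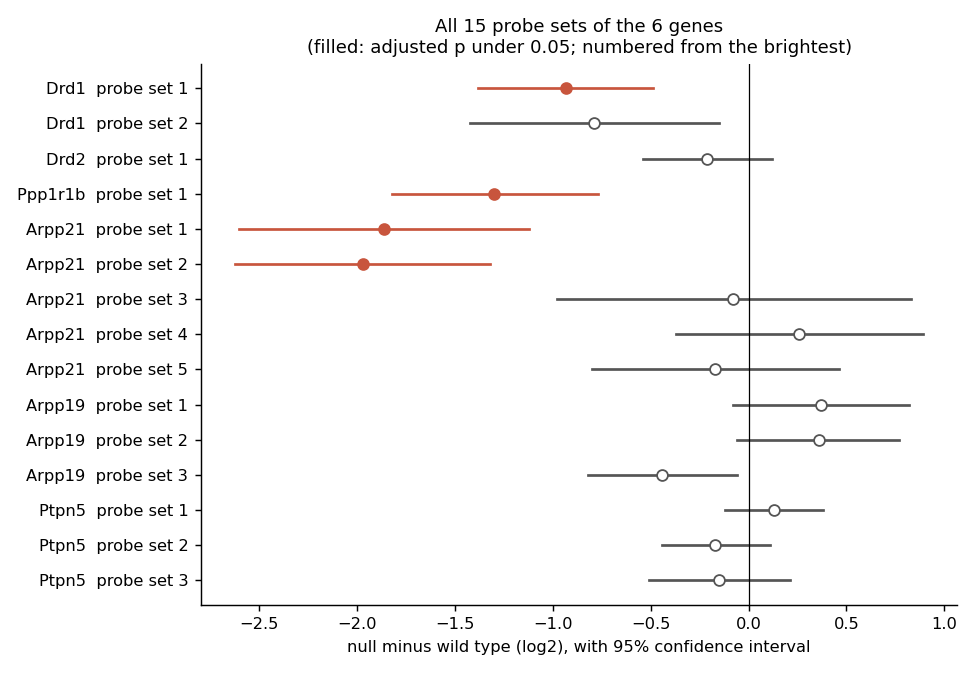
Difference between null and wild type means (log2, horizontal axis) with its 95% confidence interval from limma for each of the 15 probe sets. Filled red points had an adjusted p under 0.05. The 4 filled points lie between -1.97 and -0.93.

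The heterozygote gave the highest value of all 8 arrays on 8 of the 15 probe sets. On the brightest probe set of each gene it read 9.08 for Drd1, 8.08 for Drd2, 10.32 for Ppp1r1b, 12.19 for Arpp21, 10.96 for Arpp19 and 9.02 for Ptpn5, above every wild type array on all 6. Over the 15 probe sets it exceeded every wild type array on 10, and over all probe sets on 27.4%. It was the highest of all arrays on 11.3% of probe sets. For Drd1, Ppp1r1b and Arpp21 it lay 0.90, 0.80 and 0.60 above the wild type mean, away from the null arrays. This is 1 mouse without replicate, and its array also had the widest signal spread, whose part in these values was not tested. Counted among the controls, it left Ppp1r1b (adjusted p = 0.0415) and Arpp21 (0.0293) called and Drd1 not (0.0930).

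The null mice were not ordered alike on all genes. Null 2 was the lowest of the 8 arrays on 7 probe sets, among them both of Drd1, that of Drd2, that of Ppp1r1b and both falling ones of Arpp21. Where all null arrays lay below wild type, some null array had to be lowest. How often null 2 was lowest over all probe sets was not counted, so this is not shown to be particular to these genes. Null 2 was also the null array of highest Ttr. Without null 2 and wild type 1, the arrays of highest Ttr, the differences were -0.67 for Drd1 (adjusted p = 0.151), -1.10 for Ppp1r1b (0.122), and -1.48 and -1.67 on both Arpp21 probe sets (0.0439 and 0.0523). That fit holds 2 wild type and 3 null mice. The choroid plexus list as a whole, 9 of 9 genes measured, did not separate the groups, with summed levels of 1137 to 10955 in wild type and 539 to 11696 in null striatum. None of its genes had an unadjusted p under 0.05 or passed the SAM limit, a score beyond 2 that the study used to select genes, and its part in the members' levels was not tested. Lists for interneurons, progenitors, astrocytes, oligodendrocytes, endothelium and blood overlapped between the groups in summed level as deposited, with 1 gene called higher on each of 3 lists: the interneuron gene Calb2 (1.52, adjusted p = 0.0153), the progenitor gene Sox2 (0.68, 0.0459) and the astrocyte gene Slc1a2 (0.78, 0.0478). After centring, the summed level of the endothelium list was 1368 to 1613 in wild type and 1629 to 2494 in null striatum, null higher.

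**Figure D4:**
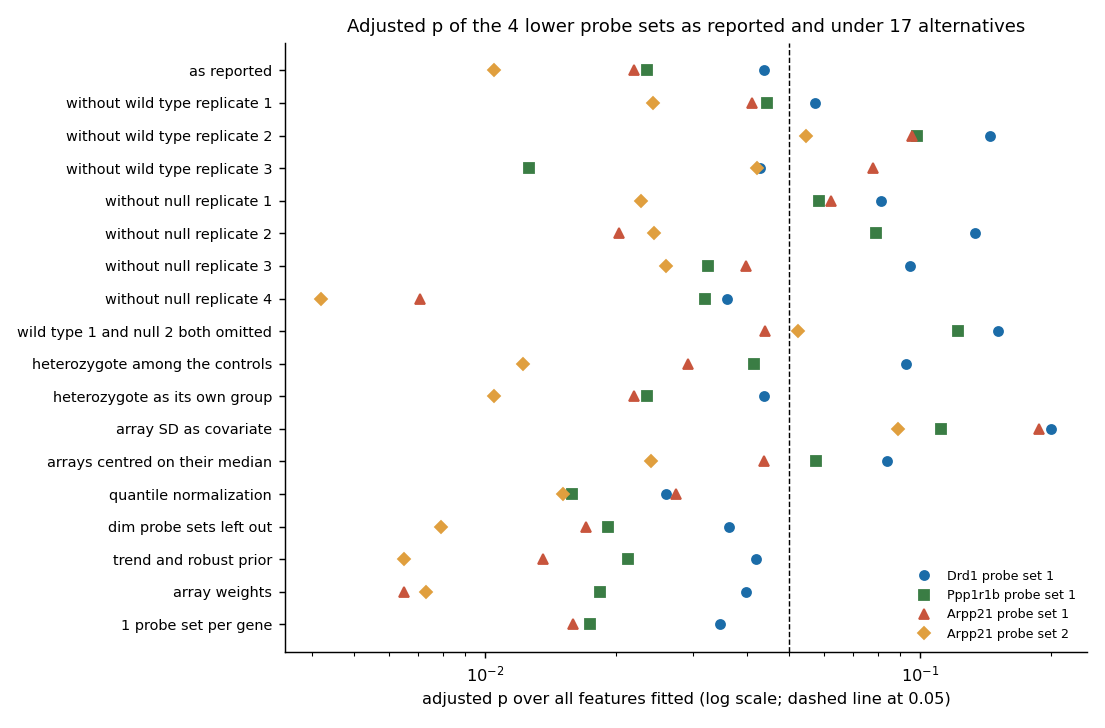
Adjusted p (horizontal axis, log scale) of the 4 lower probe sets in the fit as reported and under 17 of the alternatives, with a dashed line at 0.05. Points to the right of the line, such as all 4 without wild type 2 and all 4 with the array SD as a covariate, did not pass.

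Around the 6 genes, 107 further genes of their pathways were listed, of which 88 were measured and each is given by its brightest probe set. Among the 88 there were 7 lower and 4 higher genes, with 77 not called and a median difference of 0.18 against -0.08 over all genes. Over the brightest probe sets of all genes 0.676% were lower and 2.38% higher.

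The G protein and cyclic AMP machinery, 31 of the 88 measured genes, held more called genes than any other list, though not the largest share. Of 31 genes 4 fell, 2 rose and 25 did not pass, with a median difference of 0.22. By unadjusted p under 0.05 there were 6 lower and 10 higher genes, and by the SAM limit 8 lower and 12 higher. Of all probe sets, 19.6% had an unadjusted p under 0.05 in either direction. The SAM limit was passed by 16.2% as lower and 11.3% as higher. These shares include dim probe sets, while the list counts use each gene's brightest, so they are not like for like. The groups were apart with null lower on 5 genes and with null higher on 11, against 9.62% and 8.59% of all genes. Gng7, the gamma subunit that partners the olfactory-type alpha subunit in striatum, read 10.12, 9.91 and 9.64 in wild type and 8.34, 7.80, 8.28 and 8.61 in null striatum, 3.10-fold lower (limma adjusted p = 0.0044). Gnal, that alpha subunit, which couples D1 receptors to adenylyl cyclase, fell 1.68-fold (0.0179). Pde10a, the phosphodiesterase abundant in medium spiny neurons, read 10.26, 10.11 and 10.08 against 9.14, 9.19, 8.88 and 9.21 and fell 2.06-fold (0.0049). Adcy1, a calmodulin-stimulated adenylyl cyclase, fell 1.94-fold (0.0463). The groups were apart on each of these 4 genes.

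Other parts of the same machinery did not pass as lower. Pde7b, a cyclic AMP phosphodiesterase, differed by -1.15 without passing (adjusted p = 0.124), with wild type 2 among the null arrays. Adcy5, the main cyclase of medium spiny neurons, differed by 0.30 (adjusted p = 0.336), and Pde1b by -0.31 (0.284). Gnai2, an inhibitory alpha subunit, rose 1.55-fold (0.0206), and Pde4b, another cyclic AMP phosphodiesterase, 1.61-fold (0.0291). The catalytic and regulatory subunits of protein kinase A, 6 genes named here after their values were seen, differed by 0.22 to 0.82 without passing, Prkar2a coming nearest (0.0543). Gnai1 differed by 0.92 (0.0577), and its probe set, like some of those for protein kinase A, is of a type that can also read related transcripts. Rgs9, the striatal regulator of G protein signalling, differed by -0.28 (0.274).

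Of the kinases, phosphatases and substrates of the DARPP-32, ARPP-21, ARPP-19 and STEP pathways, 1 of 35 fell and 0 rose by limma. By unadjusted p under 0.05 there were 2 lower and 7 higher genes, and by the SAM limit 2 lower and 6 higher. Over all probe sets 19.6% had an unadjusted p under 0.05, and 16.2% passed the SAM limit as lower and 11.3% as higher. These shares again include dim probe sets, unlike the list counts. The gene that fell was Ptk2b, the calcium-activated tyrosine kinase Pyk2 and a substrate of STEP, which read 7.96, 8.06 and 7.80 in wild type and 6.31, 6.31, 6.41 and 6.38 in null striatum. It was 3.01-fold lower (adjusted p = 6.26e-04), with a null SD of 0.05. The catalytic subunits of protein phosphatase 1, the target of DARPP-32, differed by -0.32 (Ppp1ca), 0.39 (Ppp1cb) and 0.27 (Ppp1cc), with adjusted p values of 0.210, 0.146 and 0.328. Ensa, the paralogue of Arpp19, differed by -0.24 (0.375) and Mastl, the kinase that acts on both, by -0.23 (0.346). R3hdm1 and R3hdm2, relatives of Arpp21, differed by 0.19 (0.463) and 0.46 (0.265). The largest difference among those that did not pass was 0.57, of Ppp3cb, a calcineurin subunit gene, and of Ppp2r2c, a regulatory subunit of phosphatase 2A (0.173 and 0.0686).

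Genes that mark the neurons of each pathway were listed apart. Of 8 direct pathway genes 0 were called by limma, while 4 had an unadjusted p under 0.05 as lower and 3 as higher, and 4 and 2 passed the SAM limit. Over all probe sets, dim ones included, 19.6% had an unadjusted p under 0.05 in either direction. The SAM limit was passed there by 16.2% as lower and 11.3% as higher. The peptide precursor Tac1 differed by 0.14 (adjusted p = 0.611) and Isl1, a transcription factor of these neurons, by 0.69 (0.183), while Slc35d3, which acts in D1 receptor transport, differed by -0.65 (0.157). The summed level of the 8 genes was 7198 to 8465 in wild type and 10003 to 11078 in null striatum, and the brightest of them, Tac1, Ebf1 and Isl1, had positive differences. Of 6 genes listed for the indirect pathway 2 fell. Gpr6, a receptor of indirect pathway neurons, read 9.08, 7.12 and 6.84 in wild type and 5.42, 5.18, 5.45 and 6.02 in null striatum (4.48-fold lower, adjusted p = 0.0448), with wild type 1 far above the other wild type mice. The other, Plxnd1, was placed on that list although it is best known from direct pathway neurons, and fell 3.45-fold (0.0027). Penk, the enkephalin precursor, differed by 0.21 (0.675). The summed level of the 6 genes was 4511 to 5953 in wild type and 4068 to 5030 in null striatum, which overlapped. After quantile normalization it was 4994 to 5904 and 3652 to 4897, all null arrays lower. These sums include Plxnd1, and none was made without it, so they do not show a fall of indirect pathway genes as such.

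Of 6 genes for making, moving or breaking down dopamine 2 rose. Maoa and Maob, which break it down, differed by 0.68 and 0.77 without passing (limma adjusted p = 0.183 and 0.266). Ddc, the decarboxylase that forms dopamine, rose 3.17-fold (limma adjusted p = 0.0086). Slc18a2, the vesicular monoamine transporter, rose 2.73-fold (0.0399) from a low wild type mean of 3.67. The heterozygote read 5.17 for Slc18a2, near the null mean of 5.12, and 6.35 for Ddc, below the null mean of 7.33. Counted among the controls, it left Ddc called (0.0343) and Slc18a2 not (0.393). Th, named after its values were seen, differed by 1.39 (0.0551) and the dopamine transporter gene Slc6a3 by -0.20 (0.442). In the heterozygote Th read 9.15, above the null mean of 8.51. Of the other dopamine receptors Drd3 and Drd4 were measured. Drd3 was dim and differed by -0.09 from a wild type mean of 4.39, and Drd4 differed by -0.37 from 7.83, neither passing (0.656 and 0.232), though Drd4 had an unadjusted p under 0.05 and passed the SAM limit.

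**Figure D5:**
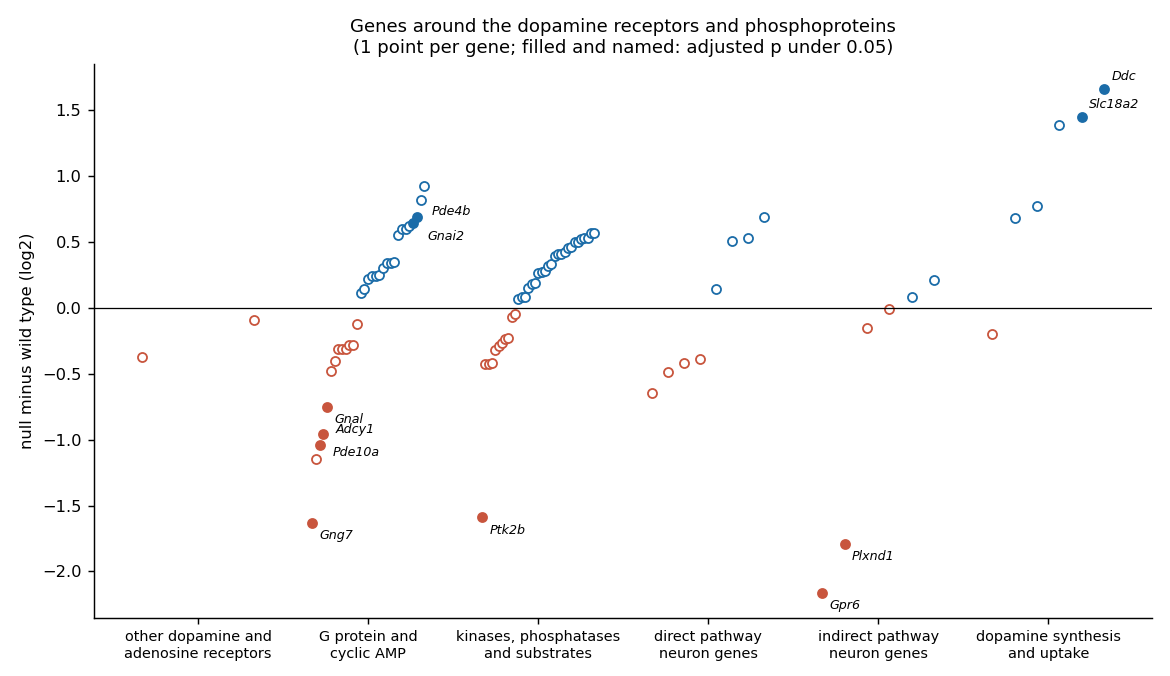
Difference between null and wild type means (log2, vertical axis) of each measured gene on the 6 pathway lists, 1 point per gene, ordered by value within a list. Filled, named points had an adjusted p under 0.05. The lower called genes are 4 of the cyclic AMP list, Ptk2b, Plxnd1 and Gpr6, and the higher ones are Gnai2, Pde4b, Ddc and Slc18a2.

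Many of these calls were lost when the setting or the set of mice was altered. Gng7, Pde10a, Ptk2b and Plxnd1 passed in all 19 alternatives. These 19 are not separate checks. The heterozygote as its own group gave the same values as the fit reported. The replicate block gave the same differences as leaving out null 4. The SAM limit was loose, passed by 16.2% of all probe sets as lower and 11.3% as higher. Gnai2 and Adcy1 each lost the call in 9 alternatives, Pde4b and Slc18a2 in 10, Gpr6 in 8, Gnal in 5 and Ddc in 2. Leaving out wild type 2, wild type 3 or null 2 left 4 lower genes on the lists. Leaving out wild type 2, wild type 3, null 1 or null 2 left 1 higher gene, against 9 when wild type 1 was left out and 8 when null 4 was.

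The genes most like each of the 6 over the 8 arrays were found among 8815 genes brighter than the median gene, by Pearson correlation of log2 values on 3 groups of mice, which is a description only. For Drd1 they were Rgs7bp (r = 0.96), Galnt10 (0.95) and Sema5b (0.95), and for Ppp1r1b they were Synpr (0.98), Lpl (0.96) and Slc7a14 (0.96). All 6 were above the wild type mean in the heterozygote, which is no separate result, because its array was among the 8 used to choose them. For Arpp21 they were Rasgrp1, Gng7 and Lrp10 (each 0.97), of which Gng7 passed the test in null striatum and Rasgrp1, a Ras exchange factor that differed by -1.43, did not (adjusted p = 0.0525). For Drd2 they were St3gal5 (0.93), Plbd2 (0.90) and Ap1s1 (0.89). For Arpp19 they were Ap1ar (0.997), Cct6a (0.99) and Clptm1l (0.99), and for Ptpn5 they were Fxyd7 (0.96), Pex11a (0.94) and Anapc11 (0.93), none of these 9 genes passing. The arrays share the differences in signal spread given above, whose part in these likenesses was not tested.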

How the data were processed

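RNA from a striatal punch of each of 8 newborn mice was hybridised to an Affymetrix array, so p values measure the spread between mice. The deposited log2 values were made by the authors with RMA, per the series' design text and the submitters' processing notes. As background, RMA subtracts a modelled background, equalises the arrays by quantiles and fits probes and arrays by median polish. No label names its version or the arrays it was run on. Array spread still differed in the deposited values, which can move many probe sets together.

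The values were used as deposited. The array annotation gives 1 symbol for 34945 of 45037 probe sets, several for 932 and none for 9160. Current names came from RefSeq (GRCm38.p6). Members were matched by symbol or alias, and 0 further probe sets name a member among several genes. For other genes the probe set of highest mean over wild type and null arrays was used (18194 genes).

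Wild type (n = 3) and null (n = 4) were compared with limma 3.58.1 in R 4.3.3 (lmFit, eBayes, no covariate), adjusted over all probe sets. The fit was tested on simulated data. Differences between 2 probe sets were tested by exact permutation of the absolute difference of means, two-sided. Named were all probe sets of the 6 genes, Bcl11b, the called genes of each pathway list and otherwise its 2 members of largest difference, the 3 genes most like each member, and further listed genes chosen after their values were seen. Members, lists and alternatives were chosen with earlier results of these data known. The study selected genes by SAM scores beyond 2, and that limit was an alternative here. Other alternatives were samples left out, the heterozygote as control or own group, the replicate block, array spread as a covariate, centring, quantile normalization, a filter at the 30th percentile, a trend with robust prior, array weights and 1 probe set per gene. The replicate numbers did not mark shared litters or days in the labels, and same-numbered wild type and null arrays did not deviate together. The number of arrays limits the precision. Figures used matplotlib 3.10.9.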

Additional observations from a re-analysis of the deposited data

Results flagged for a closer look

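One of the 15 probe sets had a null mouse far from the others. On Arpp21 probe set 1440429_at null 4 read 4.40 against 3.68, 3.68 and 3.77 in null 1 to 3, a gap of 0.871 of the group's whole range, above Dixon's 95% critical value for 4 samples. Chance flags about 1 in 20 groups, and 15 were tested. The probe set is the dimmest of the gene and showed no call.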

How the results depend on the processing

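The differences of Drd1, Drd2, Ppp1r1b and both falling Arpp21 probe sets were negative under every alternative run, and no called value turned its sign. Several alternatives could not alter a difference: the heterozygote as own group, the filter, the trend with robust prior, SAM and 1 probe set per gene. Where all null values lay below all wild type values, leaving out mice could not turn the sign either. The sign alone therefore gives little support. Drd1 was not called with wild type 1 and null 2 omitted (-0.67), the heterozygote as control (-1.16), array SD as covariate (-0.94) or centred arrays (-0.87). Ppp1r1b was not called with both arrays omitted (-1.10), the SD covariate (-1.40) or centred arrays (-1.24), and Arpp21 with the SD covariate (-1.52). With 1 mouse left out the differences ran from -1.14 to -0.73 for Drd1, from -1.60 to -1.11 for Ppp1r1b and from -2.11 to -1.53 for Arpp21. The count of lower members, 4 as reported, ran from 0 to 4 with 1 mouse left out (0 without wild type 2, 1 without null 1, 2 without null 2) and was 1 with both arrays omitted, 0 with the SD covariate and 2 with centred arrays. SAM scores gave 6 lower and 1 higher, the latter Ptpn5 (0.13, score 2.45), where 16.2% and 11.3% of all probe sets passed. Listed pathway genes ran from 4 to 8 lower and from 1 to 9 higher with 1 mouse left out. Higher genes numbered 7 with the replicate block, 0 with both arrays omitted or the SD covariate, 1 with the heterozygote as control or quantile normalization, 14 with array weights and 7 over 1 probe set per gene. There were 4 lower genes with the SD covariate, and 17 lower and 24 higher by SAM. Why these counts moved was not tested. With the replicate block, Drd1 had an adjusted p of 0.0168, Ppp1r1b differed by -1.25 (0.0292), and Arpp21 by -2.11 (0.0034), and the second Drd1 probe set by -0.95 (0.0371), the block changing no other member's call. Deviations of same-numbered arrays correlated at -0.25, -0.31 and -0.17, so the numbers are not treated as pairs. Drd1 against Drd2 ran from -0.96 to -0.42, and Arpp21 against Arpp19 from -2.58 to -1.89, with 1 mouse left out, where fewer assignments cannot give a p under 0.05 after adjustment. The former was not called under any alternative, nor was the latter, which was -0.86 with probe sets averaged.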
